A study of Drosophila melanogaster with 4 samples.

Results

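This account covers the linker histone H1 on the interior of 3L, the left arm of chromosome 3 of Drosophila melanogaster, in nuclei of adult heads. Its members are the H1-enriched regions, called clusters, that lie wholly between 1 and 22 Mb of 3L in the list the authors made for their replicate set. They number 2632 of the 15736 clusters of that combined list, or 16.7%. The window leaves out 1 Mb at the telomere end, where coordinates begin, and 2.54 Mb at the centromere end. It measures 21 Mb, and no cluster of any list crosses its edges. The same window holds 452 of 2771 clusters in the list of H1 ChIP replicate 1 and 368 of 2922 in that of replicate 2.

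The flies were Oregon-R, a wild-type laboratory strain, labelled as mixed adults and raised in population cages, and their heads were collected with sieves. The series holds 2 H1 ChIP samples and 2 input samples, all of that same genotype. Each input is tied by the labels to 1 ChIP list, and no input has a list of its own. There is thus no second condition, and the replicates are the only measure of error. The labels do not say whether they came from separate collections of flies, so their spread may be technical. A head mixes many cell types, such as neurons, glia and photoreceptors, so a cluster may stand for many cells with little H1 or few cells with much of it, and these cannot be told apart.

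H1 binds the nucleosome at the entry and exit of its DNA and helps to fold arrays of nucleosomes into compact fibres. In flies it is encoded by a repeated gene within the histone gene cluster, is abundant along chromosomes and takes part in the silencing of heterochromatin and transposons. Active promoters are known for low H1. Because H1 lies on much of the genome, its ChIP signal tends to be broad and shallow rather than peaked. The interior of 3L is mostly euchromatin, the gene-rich part of the arm.

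H1 clusters were dense and shallow along the 3L interior. The combined list placed 125 clusters per Mb, which covered 4.82 Mb or 22.9% of the window. Replicate 1 covered 3.53% of the window and replicate 2 covered 2.97%, with a mean of 3.25% ± 0.399 (SD, n = 2). The combined list therefore holds far more sequence than the replicate lists together, and no source used here says how it was made from them. The enrichment of each cluster is the authors' own score, read as log2 of ChIP over input, and is given here as a fold. Members had a median of 1.34-fold, and 90% of them lay between 1.26-fold and 1.42-fold. The median was 1.57-fold in replicate 1, with 90% of clusters between 1.41-fold and 1.73-fold. It was 1.51-fold in replicate 2, with 90% between 1.38-fold and 1.65-fold.

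The replicate lists had few clusters of the window in common. Of the 452 clusters of replicate 1, 43 overlapped a cluster of replicate 2 by at least 1 bp, which is 9.51% (95% Wilson interval 7.14 to 12.6), where the whole list of replicate 1 had 18.3%. Of the 368 clusters of replicate 2, 44 overlapped replicate 1, which is 12.0% (9.03 to 15.7), where the whole list of replicate 2 had 17.7%. When 50% of a cluster had to be covered, the shares were 6.19% and 7.61% for replicates 1 and 2. With each whole list cut to its highest-scoring 50%, they were 4.81% and 7.76%. That cut also thins the list to be met, which can lower the shares by itself. They therefore do not compare strong clusters with weak ones. The bases in both lists came to 43.8 kb, or 5.91% of those in replicate 1 and 7.03% of those in replicate 2. Whole-list shares include heterochromatic and unplaced sequence. Wilson intervals cover counting error only.

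Where clusters of the replicates did meet, they mostly met over much of their length. The overlaps formed 45 pairs, with a median of 1222 shared bases and a range of 1 to 2008, and 27 pairs shared 1 kb or more. In the median pair, 80.6% of the shorter cluster was shared. Fold enrichment in these pairs ran from 1.39-fold to 1.73-fold in replicate 1 and from 1.36-fold to 1.66-fold in replicate 2. As a description over the 45 pairs, which come from the same 2 lists, the scores were nearly unrelated (Spearman's rho = 0.12, Pearson's r = 0.086). Shared and unshared clusters had the same median to 2 decimals, at 1.57-fold in replicate 1 and 1.51-fold in replicate 2. Shared clusters had a median length of 1561 bp against 1492 bp in replicate 1, and 1667 bp against 1535.5 bp in replicate 2.

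Some other clusters of the replicates lay near each other without touching. In replicate 1, 141 of 452 clusters (31.2%) had a replicate 2 cluster within 5 kb, the 43 overlaps included. The median distance to the nearest was 14.9 kb. In replicate 2, 142 of 368 (38.6%) had a replicate 1 cluster within 5 kb, the 44 overlaps included, and the median distance was 9.26 kb. The share within 5 kb on the interiors of 2L, 2R and 3R was 37.3%, 29.2% and 35.3% in replicate 1. It was 38.4%, 50.6% and 49.8% in replicate 2. Other clusters were isolated: 90 of replicate 1 (19.9%) and 35 of replicate 2 (9.51%) lay more than 50 kb from any cluster of the other list. On the interiors of 2L, 2R and 3R the share of such isolated clusters was 17.1%, 23.8% and 20.2% in replicate 1, and 9.98%, 5.71% and 2.92% in replicate 2.

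Most members had no counterpart in either replicate list. Clusters of both replicates met 55 members, or 2.09% (95% Wilson interval 1.61 to 2.71), against 3.57% over the whole combined list. The share was 0.304% when each replicate had to cover 50% of the member. Length alone makes that cut hard to pass. The 55 members had a median of 4010 bp, and clusters of the window had medians of 1496 bp in replicate 1 and 1539.5 bp in replicate 2. A further 369 members (14.0%) overlapped replicate 1 alone and 303 (11.5%) overlapped replicate 2 alone. Together 727 members, or 27.6%, were met by either replicate (30.1% over the whole list), and 1905, or 72.4%, by neither (69.9% over the whole list). In 41 of the 55, some base lay in all 3 lists. Turned round, 425 of 452 clusters of replicate 1 and 357 of 368 of replicate 2 overlapped a member. No share over the whole lists was computed for this direction, so these counts do not set 3L apart. The combined list was made from the same replicates, so these overlaps are no independent evidence.

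Long members were met by the replicates more often than short ones. Among the shortest 528 members, 1001 to 1122 bp, 4.92% overlapped either replicate and none overlapped both. The next groups, of rising length, gave 10.8%, 23.0% and 40.5%. Among the longest 527 members, 2296 to 10910 bp, 58.8% overlapped either replicate and 50 overlapped both. A long cluster has more room to be met, and the shortest replicate clusters in the window measured 1301 bp. The part of either in this rise was not tested. By score the rise was smaller, with 35.9% of the highest-scoring 527 members and 21.1% of the lowest-scoring 527 met by either. The highest-scoring group held 38 of the 55 members met by both.

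**Figure D1:**
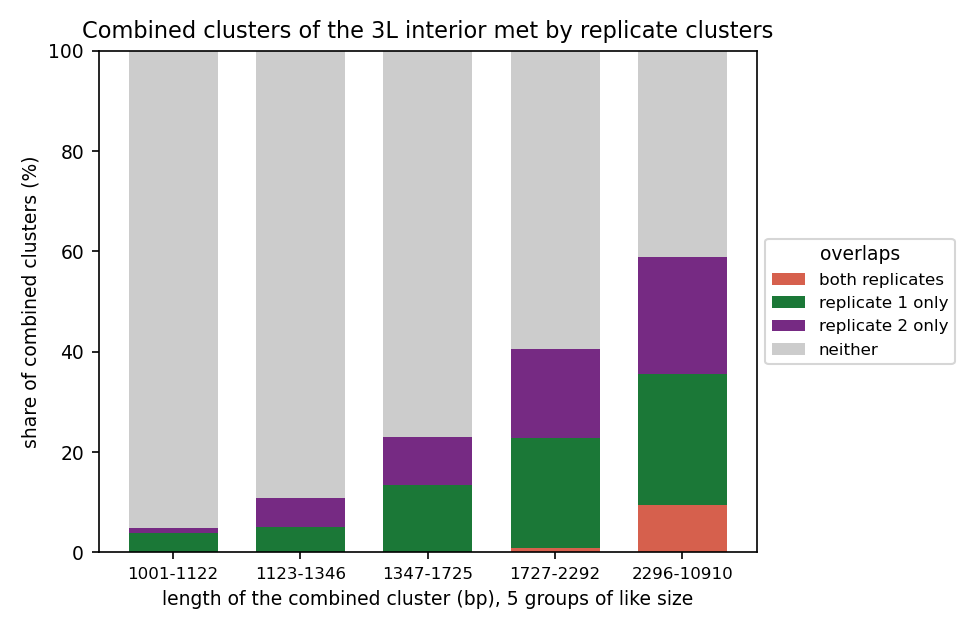
Share of combined clusters of the 3L interior (%) that overlapped clusters of both replicates, of replicate 1 only, of replicate 2 only or of neither, in 5 groups of like size ordered by length in bp. The share met by either replicate is 4.92% in the shortest group and 58.8% in the longest, and 50 of the 55 clusters met by both are in the longest.

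Lengths were skewed, with many short members and a long tail. The median member was 1504.5 bp, the middle 50% ran from 1167 to 2023.5 bp, and 69 members had the shortest length of 1001 bp. The 672 members of 2 kb or more were 25.5% of the members and held 43.8% of their bases. There were 47 members of 5 kb or more, and no cluster of the window reached that length in replicate 1 (longest 4087 bp) or replicate 2 (longest 4134 bp). The 55 members met by both replicates had a median of 4010 bp and 1.40-fold, and the 1905 met by neither had a median of 1336 bp and 1.34-fold.

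Score and length showed almost no rank relation among members as a whole (Spearman's rho = -0.028 over 2632 members of 1 list, a description). The medians by length were not flat, however. They were 1.36-fold in the shortest group, 1.33-fold and 1.31-fold in the next groups, 1.34-fold in the one after and 1.35-fold in the longest. In the replicates longer clusters had higher scores, with rho = 0.28 in replicate 1 and 0.31 in replicate 2.

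The longest member was 3L:21705451-21716360, at 10910 bp and 1.43-fold. Replicate 1 had a cluster of 2904 bp in it (21712930 to 21715833, 1.69-fold) and replicate 2 one of 4134 bp (21709217 to 21713350, 1.65-fold), and they shared 421 bases. Next came 3L:3655783-3666426, at 10644 bp and 1.40-fold, which was met by replicate 2 over 41.1% of its length and by no cluster of replicate 1. After it came 3L:1898110-1908299, at 10190 bp and 1.37-fold, with 14.6% in clusters of replicate 1 and 57.9% in those of replicate 2, yet 35 bases in both. The fourth, 3L:3644628-3654774, had 15.8% in replicate 1 and 13.5% in replicate 2, with no base in common. A member met by both replicates thus need not hold a base that both lists contain.

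The other 6 of the 10 longest members measured 7149 to 9003 bp and 1.33-fold to 1.42-fold. On 3L:3697824-3706826 the replicates shared 910 bases. Clusters of both met 3L:21775964-21784057, 3L:20676112-20683330 and 3L:13763773-13770921, but shared no base there. Replicate 2 alone met 3L:3688899-3697511 (24.2% of its length), and replicate 1 alone met 3L:6587208-6595000 (52.9%). Of the 10, therefore, 7 were met by both replicates and 3 held a base in all lists. Over all members 2.09% were met by both and 1.56% held such a base, and 9.49% of the longest 527 were met by both. The longest members have the most room to be met, and the part of length was not tested.

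The longest members with a base in all 3 lists were 3L:21705451-21716360, 3L:1898110-1908299 and 3L:3697824-3706826, already given, then 3L:2070027-2076668 and 3L:4876064-4882487. On 3L:2070027-2076668, of 6642 bp and 1.40-fold, the whole replicate 2 cluster of 1395 bp (1.40-fold) lay inside a replicate 1 cluster of 2140 bp (1.64-fold). On 3L:4876064-4882487, of 6424 bp and 1.38-fold, replicate 1 had a cluster of 2224 bp (1.63-fold) and replicate 2 had clusters of 1565 bp (1.64-fold) and 3848 bp (1.58-fold), and 876 bases were shared.

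The highest scores belonged to the shortest members. Just 7 members were above 2-fold, all 1001 to 1090 bp long and none met by a replicate. Of the 528 members of 1001 to 1122 bp, 95.1% were met by neither, so this does not set the 7 apart. At the top, 3L:11080947-11081947 and 3L:14263885-14264885 had the same score, at 9.12-fold and 1001 bp each. They were followed by 3L:17723956-17724975 (3.75-fold), 3L:2455712-2456783 (2.23-fold) and 3L:9533471-9534560 (2.18-fold). Scores are ratios of whole numbers times a constant, as far as the values show, and in lowest terms the divisor of these 5 was 1, 1, 7, 21 and 23, where the median member had 203. This divisor is no count the authors gave, since shared factors lower it. Small divisors also occurred in much longer members with scores near the median. The divisor therefore does not rank members, and it cannot show whether low counts lay behind these 5 scores. At the other end, the 5 lowest scores ran from 1.169-fold to 1.185-fold at lengths of 1308 to 1959 bp. Among these 5, 3L:20043505-20044812, 3L:15271752-15273203 and 3L:18561064-18562620 had 95.1%, 100.0% and 96.7% of their bases in replicate 2 clusters and none in replicate 1. The remaining 3L:12980959-12982458 and 3L:8014754-8016712 were met by neither.

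Members stood at uneven steps, with many short gaps and some long ones. Grouping beyond random placement was not tested. The median gap between neighbours was 2.24 kb and the mean 6.15 kb ± 11.2 (SD over 2631 gaps of 1 list), so the SD was 1.82 times the mean. Of the gaps, 808 (30.7%) were under 1 kb and 121 were under 100 bp, down to members that abut. At the other extreme, 10% of gaps exceeded 15.9 kb. Gaps in the replicates were wider, with a median of 24978 bp in replicate 1 and 23609 bp in replicate 2. Their SD was 1.18 and 1.45 times their mean.

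**Figure D2:**
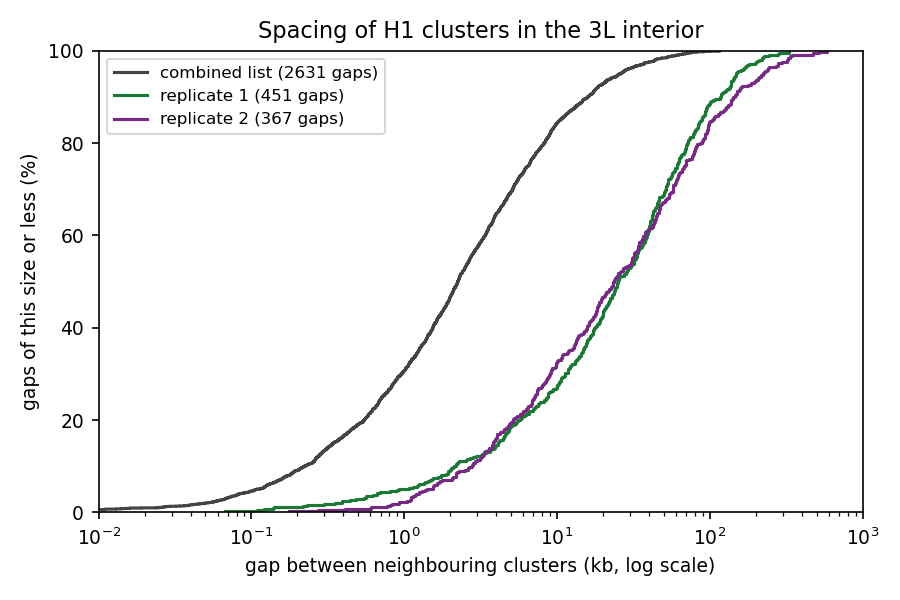
Cumulative share of gaps (%) against gap size (kb, log scale) between neighbouring H1 clusters of the 3L interior, for the combined list and for both ChIP replicates. The median gap is 2242 bp in the combined list, 24978 bp in replicate 1 and 23609 bp in replicate 2, and 808 gaps of the combined list are under 1 kb.

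Joined across gaps under 1 kb, the members formed 1824 runs. Single members made 1294 of them, and the other 530 runs held 1338 members (50.8%) in groups of up to 9. The 45 runs of 10 kb or more covered 3.09% of the window and held 12.1% of member bases. Replicate 1 had clusters in 32 of these long runs, replicate 2 in 36 and both in 25. A long run has more room to be met, and no share over all runs was computed. These counts therefore do not set the long runs apart. The 2 longest runs, named after their values were seen, had different support. The run at 3L:3669513-3712366 spanned 42.9 kb with 9 members over 94.0% of its length, and clusters covered 17.6% of it in replicate 1 and 21.1% in replicate 2. The run at 3L:19293717-19324479 spanned 30.8 kb with 9 members over 86.2% of its length. There replicate 1 covered 23.6% and replicate 2 had no cluster at all.

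Each of the 100-kb bins held part of a member, although gaps longer than a bin occurred across bin edges. With members of 1301 bp or more 1 bin was empty, and with the highest-scoring 50% of the whole combined list 15 were. The 210 bins held from 1 to 28 members each, with a median of 11.5, and coverage ran from 1.18% to 72.7% with a median of 20.5%. The variance of the number per bin was 3.22 times its mean, where it was 1.31 times in replicate 1 and 1.97 times in replicate 2. This ratio depends on the mean, which was 12.5 in the combined list, 2.15 in replicate 1 and 1.75 in replicate 2. It therefore does not rank the lists by clumping. In replicate 1, 32 bins had no cluster bases, and in replicate 2 63 had none. They had 16 such bins in common, and in those the combined list still covered a median of 5.69%, and up to 23.3%. In the 131 bins with clusters of both replicates its median was 28.3%.

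**Figure D3:**
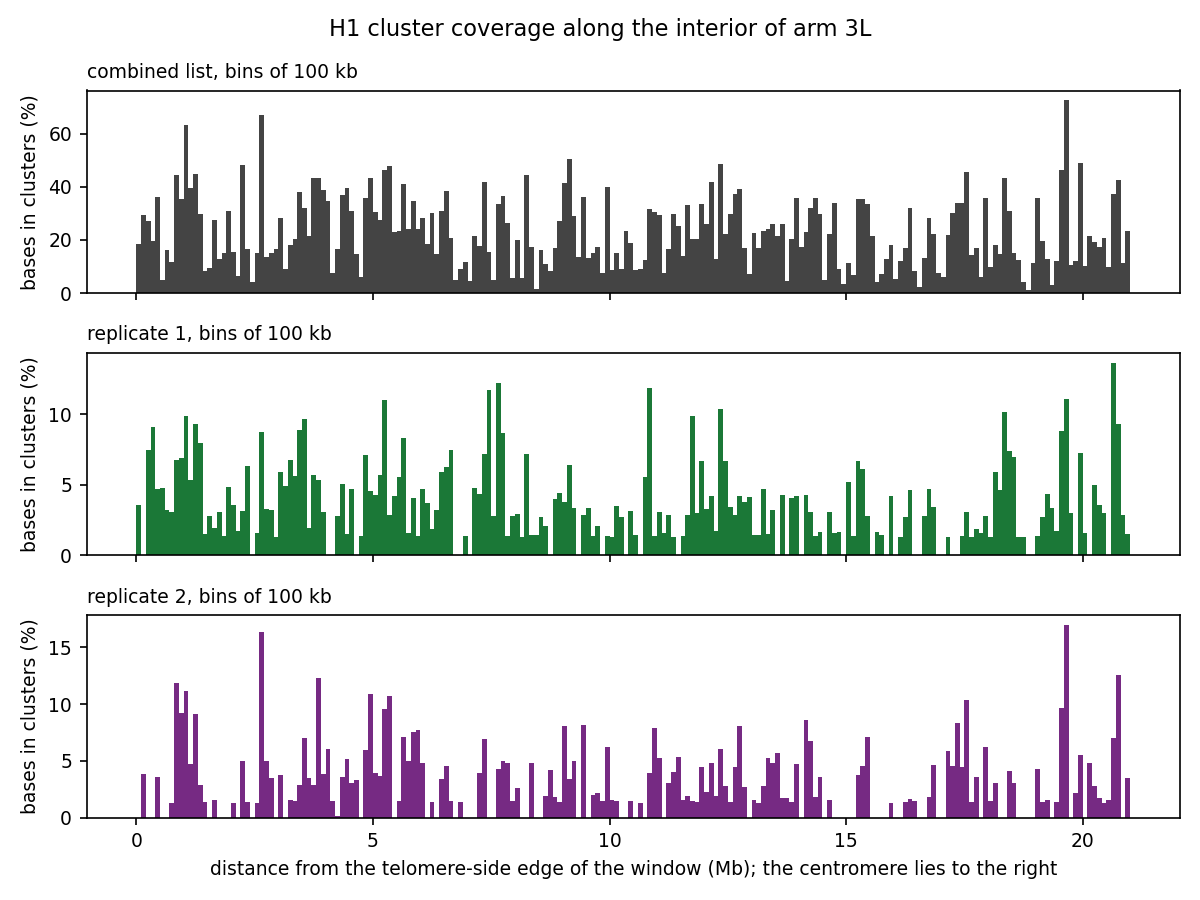
Share of bases in H1 clusters (%) in 210 bins of 100 kb along the 3L interior, against distance from the telomere-side edge of the window in Mb, for the combined list, replicate 1 and replicate 2 (each panel has its own scale). The combined list peaks at 72.7% and never reaches 0, while 32 bins of replicate 1 and 63 of replicate 2 are empty.

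The most covered bin lay at 20.6 to 20.7 Mb, with 72.7% in the combined list, 11.1% in replicate 1 and 17.0% in replicate 2. At 3.6 to 3.7 Mb the values were 67.2%, 8.76% and 16.4% in that order, and at 2.0 to 2.1 Mb 63.4%, 9.84% and 11.2%. These bins were also high in both replicates, though the combined list that picked them was made from the same replicates. The next, at 10.1 to 10.2 Mb, had 50.5% in the combined list with 6.43% in replicate 1 and 3.40% in replicate 2, and at 20.9 to 21 Mb 49.2%, 7.22% and 5.49%. The most covered bins differed in make-up: 14 members filled the bin at 3.6 to 3.7 Mb, against 28 at 20.6 to 20.7 Mb.

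The top 10% of bins, 21 in number, had 41.9% or more in the combined list. Of these 21, 9 were also among the top 21 of replicate 1, 12 among those of replicate 2 and 7 among both. Their mean coverage was 7.25% in replicate 1 and 8.38% in replicate 2. High combined coverage did not always come with clusters of both replicates. The bins at 9.2 to 9.3 Mb (44.6%) and 19.3 to 19.4 Mb (43.3%) had 7.19% and 10.1% in replicate 1 and no cluster in replicate 2. They were named after their values were seen.

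The least covered bin lay at 19.8 to 19.9 Mb, with 1 member over 1.18% and no cluster of either replicate. The bins at 17.5 to 17.6 Mb (2.33%) and 15.9 to 16.0 Mb (3.33%) also had none. The bin at 9.4 to 9.5 Mb (1.70%) had 1 cluster of replicate 1, over 1.42%. At 20.3 to 20.4 Mb replicate 1 covered 3.38%, more than the 3.08% of the combined list. Over the lowest 21 bins, all at 6.52% or less, replicate 1 averaged 1.15% and 10 bins were empty in it. Replicate 2 averaged 0.152%, and 19 of the 21 were empty.

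Dense and sparse bins had little likeness to the bins beside them. Coverage of a bin and its neighbour was weakly related in the combined list (rho = 0.20), in replicate 1 (0.24) and in replicate 2 (0.24), and 2 bins apart the values were -0.042, 0.10 and 0.076. Among the top 21 bins of the combined list 6 adjoined another of them, as did 2 of the lowest 21. Between replicates, coverage of the 210 bins was related with rho = 0.32 (Pearson's r = 0.39), as a description over bins that share libraries. The combined list followed replicate 2 (rho = 0.75) more closely than replicate 1 (0.55).

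**Figure D4:**
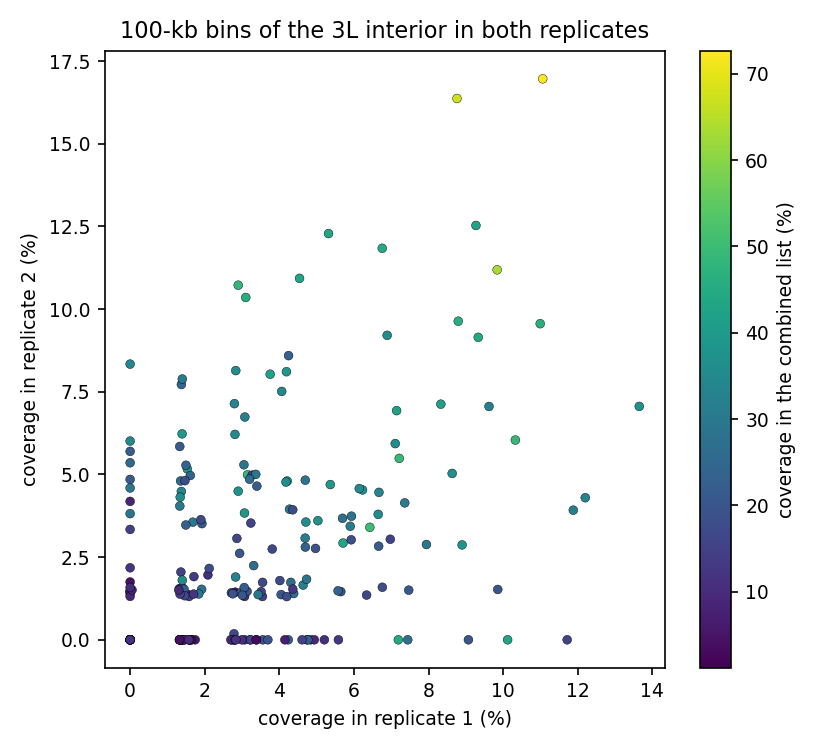
Coverage (%) of each 100-kb bin of the 3L interior in replicate 2 against replicate 1, coloured by coverage in the combined list (%). The relation is loose (rho = 0.32), the bins with over 60% in the combined list are high on both axes, and bins at 0 on 1 axis reach beyond 8% on the other.

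Long gaps without a member took up a good part of the window. There were 41 gaps of 50 kb or more, which added up to 2.84 Mb or 13.5% of it. Of these, 36 were also free of whole clusters of either replicate, 4 held a cluster of replicate 1 and 1 held a cluster of replicate 2. The combined list was made from the same replicates. Just 27 of 452 clusters of replicate 1 and 11 of 368 of replicate 2 overlapped no member. Few could fall in any gap, so their absence here is no independent evidence. The widest was 3L:18732490-18849479, at 117.0 kb, and the next 3L:7752014-7867220, at 115.2 kb, and no replicate had a cluster in them. The same held for 3L:9410432-9509813 (99.4 kb) and 3L:8033126-8125854 (92.7 kb). In 3L:9658112-9751632 (93.5 kb) replicate 2 had 1 cluster of 1412 bp. How much of these gaps is sequence that reads can be placed on was not analysed here.

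In sections of 1 Mb, combined coverage ran from 14.8% at 17 to 18 Mb to 32.3% at 6 to 7 Mb. The section at 6 to 7 Mb was high in both replicates, at 4.91% in replicate 1 and 5.67% in replicate 2. That at 17 to 18 Mb was low in both, at 1.97% and 1.11%. Neighbouring sections near the centromere side, named after their values were seen, ran opposite ways in the replicates. At 18 to 19 Mb replicate 1 covered 1.34% and replicate 2 covered 4.48%, and at 19 to 20 Mb replicate 1 covered 3.90% and replicate 2 covered 1.17%. The combined list had 24.4% at 18 to 19 Mb and 16.1% at 19 to 20 Mb.

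Against its own arm ends, the interior lay between them in the combined list, with 22.9% against 13.5% at the telomere end and 31.1% at the centromere end. Replicate 2 had the same order, with 2.97% in the interior, 0.694% at the telomere end (4 clusters) and 7.19% at the centromere end. Replicate 1 had a narrower range, with 3.53% in the interior, 3.14% at the telomere end and 4.11% at the centromere end.

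Against the interiors of the other large autosomal arms, drawn 1 Mb from the telomere end and 2.5 Mb from the centromere end, the 3L interior was less covered than 2L and 3R in both replicates, and less covered than 2R in replicate 1 alone. Its coverage was 3.25% ± 0.399, against 3.55% ± 0.0640 on 2L, 3.14% ± 1.25 on 2R and 4.00% ± 0.917 on 3R (SD, n = 2 replicates each). In replicate 1 it was 3.53% on 3L, against 3.60% on 2L, 4.02% on 2R and 4.65% on 3R. In replicate 2 it was 2.97% on 3L, against 3.51%, 2.25% and 3.35% on the same arms. The ratio of 3L to the other 3 interiors was 0.908 ± 0.0761 (SD, n = 2), and 0.979 in the combined list. Members per Mb were 125 on 3L, against 133 on 2L, 113 on 2R and 130 on 3R, and the median gap was 2.24 kb against 2.06, 2.52 and 2.06 kb. An exact permutation test of 2 pairs cannot go below a two-sided p of 0.5, and none was run. The X interior had 0.678% ± 0.203 in the replicates and 46.8 clusters per Mb in the combined list.

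The share of clusters met by the other replicate was lower on 3L than on the other autosomal interiors. The intervals given cover counting error only and do not compare the arms. For replicate 1 it was 9.51% on 3L, against 14.9% on 2L, 10.8% on 2R and 15.7% on 3R (95% Wilson intervals 7.14 to 12.6, 11.8 to 18.6, 8.23 to 14.2 and 13.2 to 18.6). For replicate 2 it was 12.0% on 3L, against 15.1%, 18.8% and 22.5% on the same arms (9.03 to 15.7, 11.9 to 18.9, 14.4 to 24.1 and 19.0 to 26.4). Combined clusters met by both replicates made up 2.09% on 3L, against 2.78%, 2.90% and 3.49%. Those met by either made up 27.6% on 3L, against 27.3%, 28.1% and 30.6%. The lists to be met also differed in coverage between arms, as given above, and the part of this was not tested. These differences were not tested, since clusters of 1 library are not replicates.

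**Figure D5:**
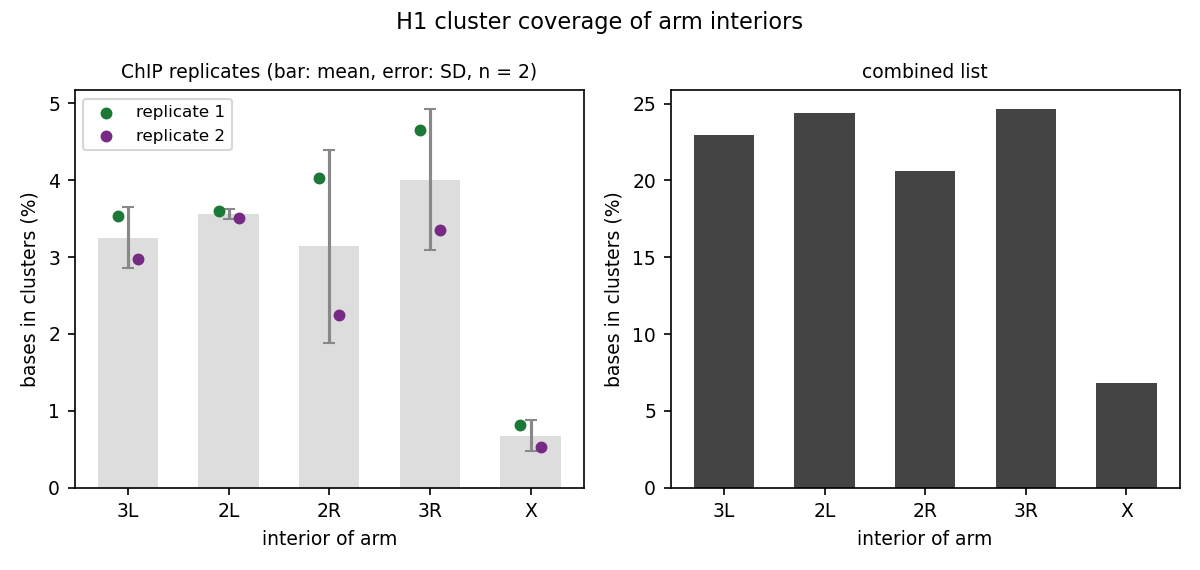
Share of bases in H1 clusters (%) in the interiors of 3L, 2L, 2R, 3R and X: points are the ChIP replicates, bars with error their mean and SD (n = 2), and the right panel is the combined list. The 3L interior has 3.25% in the mean of the replicates and 22.9% in the combined list, below 2L and 3R in each replicate, and X is lower on both panels.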

How the data were processed

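The data are lists of H1-enriched clusters: 1 for each of 2 ChIP samples, called per sample, and 1 combined list for the replicate set. The submitters' processing notes name Bowtie 0.12.7 as aligner; no source used here names the caller or its thresholds. Per the file headers, coordinates are on FlyBase release 5, and they are given 1-based. The score the authors deposited has no name and was read as the log2 enrichment of ChIP over input that they calculated for each cluster, since 2 raised to the score was a ratio of whole numbers (divisor up to 2000, tolerance 1e-12) times 1 constant per list for 99.9% of combined scores.

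Coverage, gaps, bins and overlaps were computed in Python 3.11.15 with numpy 2.4.6, pandas 2.3.3 and scipy 1.17.1, after checks on simulated intervals. Sequencing depth is unknown, and no interval is given for single scores. No p-value is given, because clusters and bins of a library are not replicates. The window and lists were chosen with earlier results of these data known. Regions named by a rule are the 10 longest members, the extremes of score, the longest members with a base in all lists, the longest gaps and the extreme bins. Other bins, the runs and the 1-Mb sections were named after their values were seen. Alternatives covered score, length, overlap and bin size. Genes and sequence under the clusters were not analysed here, since the gene table used is of release 6.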

Additional observations from a re-analysis of the deposited data

How the results depend on the processing

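Of 34 alternative values, 9 stayed within their error or within 1.5 times the count and 25 moved. For coverage in the replicates and for the ratio of 3L to the other autosomal interiors, the error was the SD of the 2 replicates. Either replicate lies within that SD of the mean by construction. The values without 1 replicate could thus not move there, and do not show stability. Keeping the 50% of clusters with the highest scores in each whole list left 962 of 2632 members. The set is smaller by design, but under 50% of members passed, so members tended to score below the median of the whole list. The 962 covered 8.92% of the window, with a median length of 1463 bp, a median gap of 8.16 kb and 15 bins without a member. Mean coverage in the replicates was 1.33%. The same cut gave replicate overlaps of 4.81% for replicate 1 and 7.76% for replicate 2, with the list to be met cut as well. Members of 1301 bp or more, the shortest length among replicate clusters of the window, numbered 1675 and covered 17.8%, with a median score of 0.417 (0.424 for all members), a median gap of 3.68 kb and 1 bin without a member, and 39.4% overlapped either replicate and 3.28% both. When 50% of a cluster had to be covered, 22.6% of members were met by the replicates and 0.304% by each of them, and the replicate overlaps were 6.19% and 7.61%. With members under 1 kb apart joined, the median gap was 4.17 kb. The replicate correlation over bins was 0.35 in 200-kb bins, 0.19 in 1-Mb bins and 0.34 for cluster counts. Leaving out 1 replicate gave coverage of 2.97% to 3.53%, members met by the remaining replicate of 13.6% to 16.1%, and a ratio of 3L to the other autosomal interiors of 0.854 to 0.962. The causes of shifts not set by construction were not tested. No paired analysis was possible because the input samples, which share their numbers with the ChIP samples, have no list; arms were compared within each ChIP replicate. Unknown depth and unknown alignable sequence limit what an empty stretch means.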
